A study of Drosophila melanogaster with 12 samples.

Results

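Smell and taste receptor genes of the odorant (Or), gustatory (Gr) and ionotropic (Ir) families were followed in heads of male Drosophila melanogaster selected on aggression. They were taken by symbol from the array annotation: every probe set assigned to 1 gene whose symbol is Or, Gr or Ir with a number and a letter from a to f, or is Orco. This gave 126 probe sets for 121 genes, out of 13966 probe sets that are not controls. They were 54 probe sets for 53 odorant receptor genes, 28 for 28 gustatory receptor genes and 44 for 40 ionotropic receptor genes. The RefSeq gene table lists 183 genes that fit the same rule, so the array annotation reaches 53 of 60 Or genes, 28 of 60 Gr genes and 40 of 63 Ir genes. Ir7g, Ir94g and Ir94h fall outside the letters of the rule, and 3 probe sets that name a receptor together with another gene were left out.

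Odorant receptors are membrane channels of olfactory neurons in the antenna and the maxillary palp, and each works as a complex of 1 tuning receptor with the shared co-receptor Orco. Gustatory receptors sit in taste neurons of the mouthparts, legs and wings and detect sugars, bitter compounds and some contact pheromones, while a pair of them senses carbon dioxide in the antenna. Ionotropic receptors derive from glutamate receptors, work with co-receptors such as Ir8a, Ir25a and Ir76b, and serve acid and amine smell, taste, temperature and humidity sensing. Male fighting in flies depends on several of these inputs, among them the pheromone cis-vaccenyl acetate through Or67d and cuticular compounds through Gr32a.

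The arrays came from 4 populations of the Canton-S laboratory strain at generation 21, with 3 arrays each. Aggressive I and aggressive II had been bred toward more male fighting, and neutral I and neutral II toward less, without a significant response according to the submitters. All flies were males 5 days old, taken at random from culture bottles and frozen in groups of about 120. They were stored in groups of about 40, so every array measures pooled heads. On 2 neutral I arrays the line label lacks the word selected, and they were kept in their titled population. Precision is limited by 3 arrays per population and 2 populations per regime, and no label tells whether the 3 arrays stem from separate cultures. The p-values may then cover technical spread only.

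Most receptor probe sets gave little signal. Signal here is the deposited MAS5 intensity, a linear brightness value per probe set, and the median over all probe sets lay between 963 and 1051 on the 12 arrays. The receptor probe sets had mean signals from 27.2 to 2437 with a median of 257, which puts the median receptor at percentile 21.8 of all probe sets. The family medians were at percentile 20.4 for Or, 25.2 for Gr and 21.0 for Ir. By mean signal 4 of 126 lay above the median probe set, 12 above the 40th percentile and 25 below the 10th. A single probe set, Or22c, exceeded the array median on all 12 arrays, 18 did so on at least 1 array and 108 on none. Signal also depends on how well each probe set binds, so no order of transcript levels between genes is drawn from it.

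Markers of tissues in the head and outside it give the scale. The neuronal genes elav and nSyb had mean signals of 2627 and 12349, the photoreceptor channel trp 37154 and the glial gene repo 2628, all above the array medians, while the 3 probe sets of the synaptic gene brp were at percentile 33.6 or lower. Of 3 fat body genes 1 lay above the median probe set, and of 2 muscle probe sets 1 did. The 5 accessory gland genes lay at percentile 8.39 or lower. The 4 midgut genes, also from outside the head, had a median percentile of 35.4, against 21.8 for the receptors, with epsilonTry at 55.8. Of 6 testis probe sets 2 lay above the median, both for bol, with means of 12760 and 1041, while dj had a mean of 86.3 and ocn 32.5. The labels do not say whether antennae and palps stayed on the heads. Genes of the support cells around antennal and palp neurons, which secrete odorant-binding proteins, were low too. Of 9 measured antennal genes of 10 listed, 0 had a mean above the median probe set, among them lush at 175 and Obp84a at 71.8, none was at 0 on any array, and their median percentile was 26.7. The summed signal of these 9 genes was 2316 to 3035 in aggressive I and 3838 to 4397 in aggressive II, against 2933 to 4176 in neutral I and 2738 to 3606 in neutral II. Without Obp83b the sum was 2184 to 2919 in aggressive I and 2598 to 3187 in aggressive II. On the neutral arrays it was then 1870.5 to 3277 in neutral I and 2014 to 2516 in neutral II, so aggressive I overlapped both. Of the 9 genes 7 had their lowest population mean in aggressive I. Obp83b had 205, 132 and 116 there, against 724 to 1252 on the arrays of the other populations, and lush averaged 127, against 177 to 214. Obp28a went the other way, with a mean of 659 in aggressive I, against 162 to 316. The part of antennal tissue in the receptor results was not tested, and in whole heads fewer receptor neurons and less RNA per neuron cannot be told apart.

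**Figure D1:**
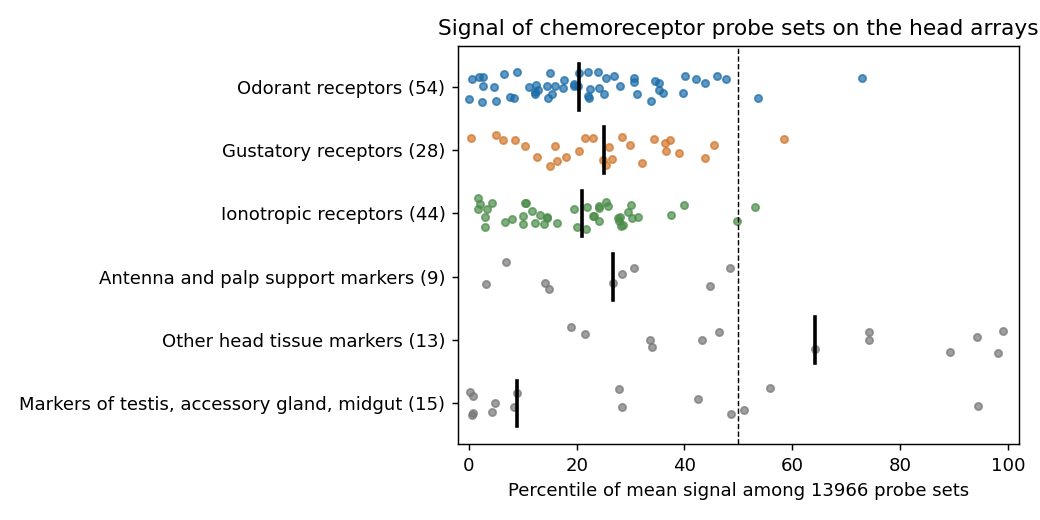
Percentile of the mean signal of each probe set among 13966 probe sets (x axis, percent) for the 3 receptor families and 3 sets of tissue markers (rows, number of probe sets in brackets); each point is a probe set, the vertical bar is the row's median and the dashed line marks percentile 50. The family medians sit at 20.4, 25.2 and 21.0, and 4 receptor points lie right of the dashed line.

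From array to array the number of receptor probe sets above the median was 3, 8 and 2 in aggressive I and 7, 9 and 4 in aggressive II, against 6, 4 and 13 in neutral I and 4, 5 and 4 in neutral II. The count of 13 belongs to neutral I array 3, whose mean correlation with the remaining arrays over all probe sets was 0.948, against 0.950 to 0.961 for each of those. Without that array 13 probe sets, against 18 with it, exceeded the median at least once.

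**Figure D2:**
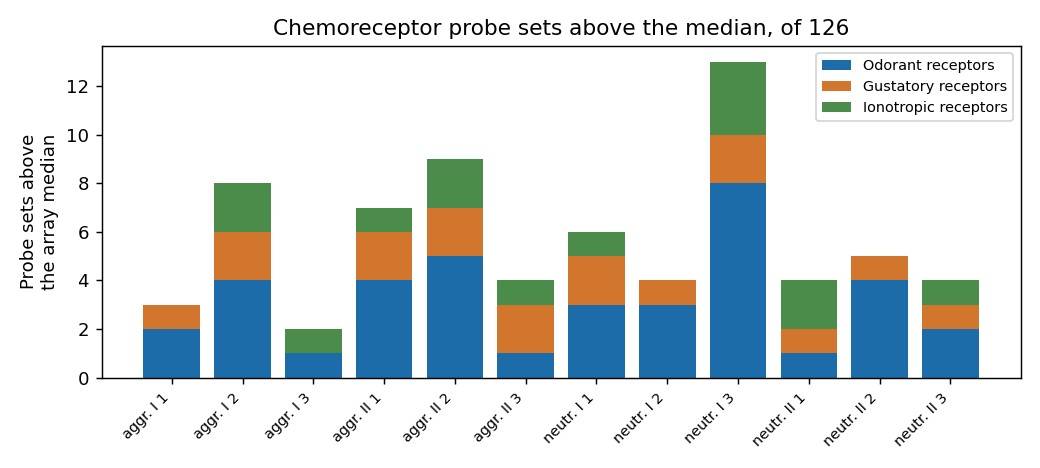
Number of receptor probe sets above the array's own median (y axis, of 126) on each of the 12 arrays (x axis), stacked by family. Counts run from 2 to 9 except for neutral I array 3, which has 13.

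The receptor values varied widely between arrays of the same population. On the log2 scale used for the tests the median SD within populations was 0.55 for receptors, against 0.29 for all probe sets and 0.49 for those below the median signal. Between percentiles 10 and 25, where 52 receptors lie, the median SD was 0.58 for receptors and 0.55 for all probe sets of that range. The ratio of the highest to the lowest of the 12 arrays had a median of 6.71 over the receptors and exceeded 10 for 37 of them. Ir8a (probe set 144744_at) had the narrowest range, 98.8 to 164, and Ir52a the widest, 10.1 to 460. Of the 5 genes with 2 probe sets, both probe sets had a correlation over the 12 arrays of 0.42 for Ir10a, -0.07 for Ir8a, -0.24 for Ir93a, -0.27 for Ir40a and -0.63 for Or46a.

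**Figure D3:**
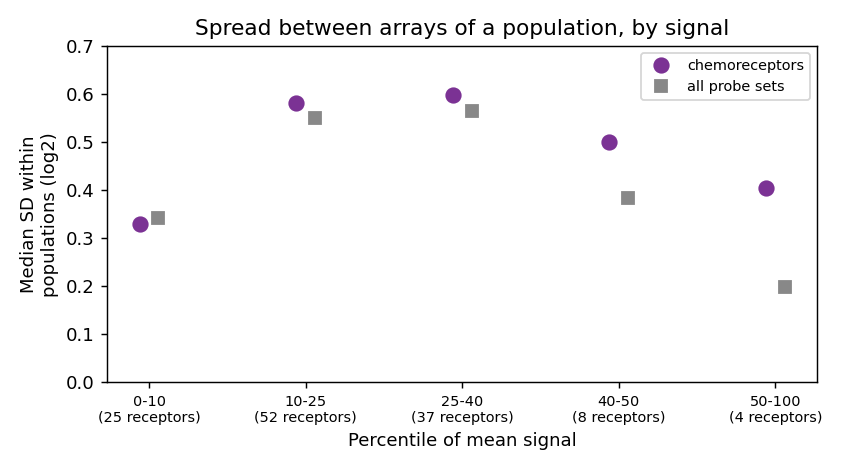
Median SD between arrays of a population on the log2 scale (y axis) for receptors (circles) and all probe sets (squares) in 5 ranges of mean signal (x axis, percentile, number of receptors in brackets). The 2 marks lie close together below percentile 40, where 114 of the 126 receptors are, and apart above it.

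No receptor gene passed in the comparison of regimes. With both populations of each regime in 1 limma fit over all 13966 probe sets, population as a random block, 0 of 126 receptor probe sets had a Benjamini-Hochberg adjusted p under 0.05, and over the whole array 0.0716% did. At an unadjusted p under 0.05 there were 5 receptors, or 3.97%, against 6.62% of all probe sets. All 5 were higher in the aggressive populations, and over all probe sets 3.62% were higher at that p. The smallest adjusted p of a receptor was 0.425. Log2 differences (aggressive minus neutral) ran from -0.66 for Or7a to 0.89 for Or85f, with a median of 0.090 over receptors and 0.014 over all probe sets. They were above 0 for 31 of 54 Or, 16 of 28 Gr and 28 of 44 Ir probe sets, 59.5% of receptors against 53.2% of all probe sets. A log2 difference of 1 is a doubling, and on log2(signal + 94.6) the changes of dim probe sets are understated.

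The 95% intervals of this fit rest mainly on the spread between arrays, since the correlation within populations was estimated at 0.0113, and they do not cover the spread between replicate selections. With 2 populations per regime an exact two-sided permutation test over populations cannot give a p below 0.333. The intervals reached a median of 0.64 to either side on the log2 scale. For 86 of 126 receptors the interval lay wholly between -1 and 1, so a doubling or its inverse on this scale was outside it, and for 21 it lay between -0.5 and 0.5. For the remainder of the 126 the interval reached past 1 or -1. The 21 between -0.5 and 0.5 included dim probe sets, such as Or56a at percentile 0.11 of signal and Gr10b at 0.37. They also included Or2a at percentile 53.6. Since the scale understates changes of dim probe sets, a narrow interval there does not exclude a doubling of the signal itself.

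**Figure D4:**
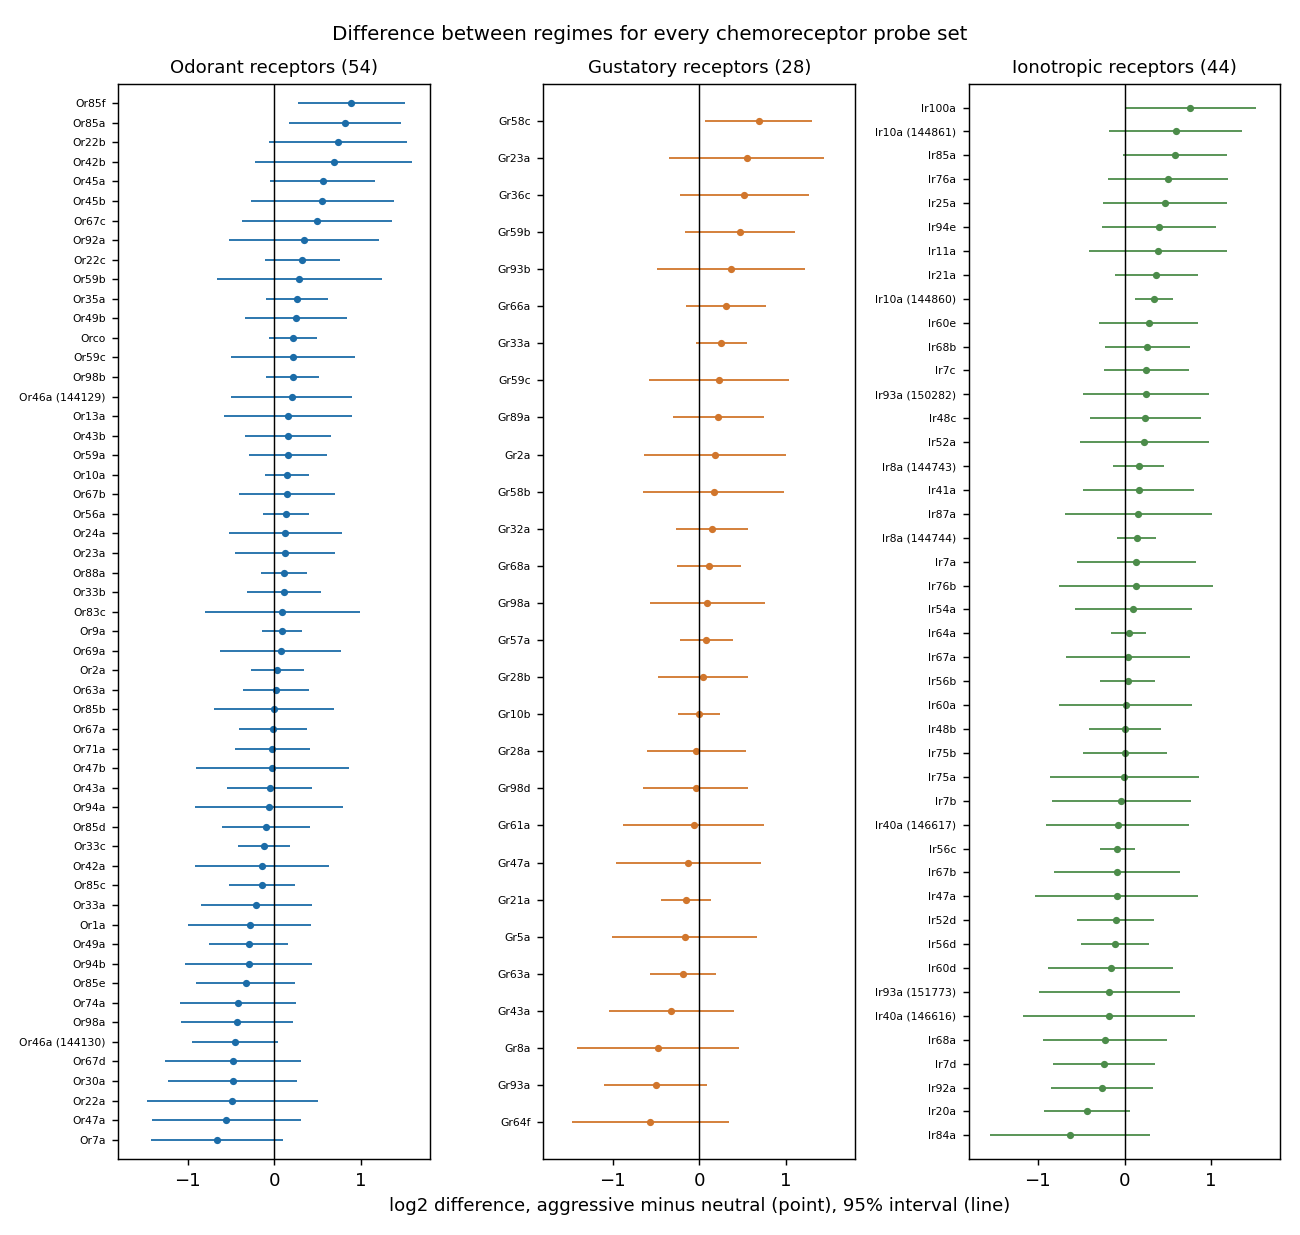
Log2 difference, aggressive minus neutral (x axis, points), with its 95% interval from the limma fit (lines) for all 126 receptor probe sets, sorted within each family (probe set number in brackets where a gene has 2). Most lines cross 0, and 5 lie wholly above it: Or85f, Or85a, Gr58c, Ir100a and 1 probe set of Ir10a.

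The co-receptors, on which whole sets of tuning receptors depend, were measured by 5 probe sets with log2 differences from 0.13 to 0.47. Orco (149330_at) had 221, 393 and 207 in aggressive I and 260, 194 and 231 in aggressive II, against 200, 198 and 199 in neutral I and 240, 170 and 206 in neutral II. Its groups overlapped, with aggressive I array 2 above the rest, and the log2 difference was 0.22 (SE 0.13, limma adjusted p = 0.817), with a 95% interval of -0.06 to 0.50. Ir25a had 459, 157 and 148 in aggressive I and 154, 173 and 947 in aggressive II, against 171, 131 and 204 in neutral I and 210, 179 and 148 in neutral II. Its log2 difference of 0.47 (SE 0.33, adjusted p = 0.845) went with single high arrays in each aggressive population, and was 0.17 without aggressive II array 3. Ir76b had 632, 545 and 456 in aggressive I and 158, 347 and 114 in aggressive II, against 106, 587 and 243 in neutral I and 657, 328 and 157 in neutral II. The regimes overlapped fully, and differed by 0.13 on the log2 scale (SE 0.41, adjusted p = 0.971). Ir8a, the co-receptor of acid-sensing receptors, had log2 differences of 0.17 (SE 0.14) and 0.14 (SE 0.11) on its 2 probe sets.

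Receptors with known roles in fly social behaviour did not pass either. Or67d, the receptor for cis-vaccenyl acetate in antennal trichoid neurons, had 76.2, 75.6 and 154 in aggressive I and 104, 333 and 109 in aggressive II, against 359, 43.8 and 508 in neutral I and 95.4, 376 and 195 in neutral II. Every population spanned more than a doubling, and the log2 difference was -0.48 (SE 0.36, adjusted p = 0.853), with a 95% interval of -1.26 to 0.30. Or47b, which detects fly-derived fatty acid odours and promotes courtship, had 395, 567 and 351 in aggressive I and 1175, 885 and 300 in aggressive II, against 660, 646 and 1283 in neutral I and 142, 839 and 398 in neutral II. Its log2 difference was -0.02 (SE 0.41). Or88a, another receptor for fly odours, had a log2 difference of 0.11 (SE 0.12) at percentile 2.69 of signal. Or65a, Gr39a and Ir52c were not analysed here.

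Ir84a, an antennal receptor for food aromatics that raises male courtship, had 266, 145 and 291 in aggressive I and 95.1, 76.0 and 683 in aggressive II, against 250, 103 and 379 in neutral I and 660, 469 and 791 in neutral II. The neutral II arrays were high and aggressive II array 3 stood apart from its population. The regimes overlapped and differed by -0.62 on the log2 scale (SE 0.42, adjusted p = 0.838), and by -0.0092 without the population neutral II. Ir52d, of male foreleg taste neurons, had a log2 difference of -0.10 (SE 0.21) at percentile 1.68 of signal. The Gr68a receptor, linked to male courtship taste, had 1039, 910 and 803 in aggressive I and 515, 781 and 1206 in aggressive II, against 677, 750 and 1070 in neutral I and 736, 757 and 807 in neutral II. Its regimes overlapped and the log2 difference was 0.11 (SE 0.17, 95% interval -0.26 to 0.48).

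Of the bitter receptors, 4 of 5 listed genes were measured, 0 passed, and all 4 log2 differences were above 0 with a median of 0.23. Over all probe sets 53.2% were above 0. Gr33a, a broadly used bitter co-receptor that also restrains courtship between males, had 592, 811 and 621 in aggressive I and 435, 570 and 680 in aggressive II, against 667, 411 and 562 in neutral I and 523, 419 and 473 in neutral II. It overlapped between regimes, and differed by 0.25 on the log2 scale (SE 0.14, adjusted p = 0.794). Gr32a, which detects contact pheromones and bitter compounds and takes part in male aggression, had 693, 455 and 623 in aggressive I and 702, 500 and 399 in aggressive II, against 556, 594 and 517 in neutral I and 514, 252 and 631 in neutral II. The log2 difference was 0.15 (SE 0.19, 95% interval -0.27 to 0.56). Gr66a, a marker of bitter neurons, was at 0.30 (SE 0.21) and Gr89a at 0.22 (SE 0.24). Without neutral II array 2, low for both, Gr32a was at 0.0073 and Gr89a at 0.0054.

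Sugar receptors were represented by 4 of 9 listed genes, 0 passed, and all 4 log2 differences were below 0 with a median of -0.25. Over all probe sets 53.2% were above 0. Gr64f, a co-receptor of sugar sensing, had 663, 302 and 118 in aggressive I and 94.4, 77.0 and 157 in aggressive II, against 652, 95 and 208 in neutral I and 512, 262 and 542 in neutral II. Aggressive II was low throughout, and the regimes overlapped and differed by -0.57 on the log2 scale (SE 0.42, adjusted p = 0.853), and by -0.048 without the population aggressive II. Gr43a, a fructose receptor that also works in the brain, was at -0.32 (SE 0.33), the trehalose receptor Gr5a at -0.17 (SE 0.38) and Gr61a at -0.07 (SE 0.38). Gr5a was at 0.098 without the population aggressive I, and Gr61a at 0.095 without neutral I. The carbon dioxide receptors were at -0.16 for Gr21a (SE 0.13) and -0.19 for Gr63a (SE 0.18), with 95% intervals of -0.45 to 0.14 and -0.57 to 0.19.

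Among odorant receptors the lists by sensory organ gave 0 passes. Of 24 listed antennal receptors outside the trichoid class 23 were measured, 16 above 0, with a median of 0.15. Of 11 trichoid receptors 7 were measured, 4 above 0, with a median of 0.032, where Or23a was at 0.12 (SE 0.26) and Or43a at -0.06 (SE 0.23). The 7 palp receptors had 8 probe sets, 2 above 0, and a median of -0.11, with Or85e at -0.33 (SE 0.26), Or33c at -0.12 (SE 0.14), Or85d at -0.10 (SE 0.23) and Or59c at 0.22 (SE 0.33). Receptors known as larval gave 6 of 11 above 0 and a median of 0.014, with Or45a at 0.55 (SE 0.28), Or45b at 0.55 (SE 0.38), Or30a at -0.48 (SE 0.35), Or74a at -0.42 (SE 0.31) and Or63a at 0.01 (SE 0.17). For scale, the median over all probe sets was 0.014.

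Or85f came closest among odorant receptors. This antennal receptor, which detects odours of parasitoid wasps, had 293, 486 and 155 in aggressive I and 490, 354 and 395 in aggressive II, against 147, 98.5 and 36.2 in neutral I and 148, 211 and 335 in neutral II. All arrays of both aggressive populations lay above those of neutral I, while aggressive I overlapped neutral II. The log2 difference was 0.89 (SE 0.28, adjusted p = 0.477), with a 95% interval of 0.27 to 1.5. Or85a, tuned to fruit esters, had 286, 688 and 567 in aggressive I and 430, 500 and 189 in aggressive II, against 162, 254 and 164 in neutral I and 160, 454 and 103 in neutral II. It overlapped between regimes, and differed by 0.81 on the log2 scale (SE 0.30, adjusted p = 0.588). Or22b, of fruit ester neurons, was at 0.73 (SE 0.37, adjusted p = 0.775), while its neighbour gene Or22a was at -0.49, and Or7a, a receptor for the leaf odour hexenal, was at -0.66 (SE 0.35, adjusted p = 0.790).

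A single receptor probe set separated the regimes array by array, 0.794% of 126, and 0.823% of all probe sets did so. It was 144860_at for Ir10a, with 508, 420 and 466 in aggressive I and 562, 419 and 468 in aggressive II, against 394, 315 and 389 in neutral I and 382, 283 and 395 in neutral II. The lowest aggressive array, at 419, lay above the highest neutral array, at 395, and the log2 difference was 0.34 (SE 0.10, adjusted p = 0.425), with a 95% interval of 0.12 to 0.56. The second Ir10a probe set, 144861_at, at percentile 7.98 of signal, overlapped between regimes and had a log2 difference of 0.59 (SE 0.35, adjusted p = 0.822). Ir100a was at 0.76 (SE 0.35, adjusted p = 0.749), Gr58c at 0.68 (SE 0.28, adjusted p = 0.697) at percentile 5.08 of signal, and Ir85a at 0.58 (SE 0.28, adjusted p = 0.752). Ir20a, an amino acid taste receptor, was at -0.43 (SE 0.23, adjusted p = 0.781).

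Ionotropic receptors of antennal coeloconic neurons and the sacculus, which sense acids and amines, were measured for 6 of 9 listed genes, 3 above 0 and 0 passing. The phenylethylamine receptor Ir76a was at 0.50 (SE 0.32), the ammonia receptor Ir92a at -0.26 (SE 0.27) and the acid sensor Ir64a at 0.05 (SE 0.09). Temperature and humidity receptors gave 7 probe sets for 5 genes, 3 above 0 and 0 passing. The cool sensor Ir21a was at 0.37 (SE 0.22), the moist air receptor Ir68a at -0.22 (SE 0.33) and their partner Ir93a at 0.25 (SE 0.34) and -0.18 (SE 0.38) on its 2 probe sets.

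Receptors above or near the median signal gave no call either. Or22c, known from larval olfactory neurons, had 1852, 3951 and 3001 in aggressive I and 3108, 2195 and 2194 in aggressive II, against 2014, 2856 and 2263 in neutral I and 2406, 1902 and 1497 in neutral II. The regimes overlapped and the log2 difference was 0.32 (SE 0.20, adjusted p = 0.829), with a 95% interval of -0.11 to 0.75. Gr8a, a receptor for the plant toxin L-canavanine, had 350, 1549 and 456 in aggressive I and 1113, 2022 and 1640 in aggressive II, against 2519, 1790 and 609 in neutral I and 1029, 1497 and 2173 in neutral II. Its log2 difference was -0.48 (SE 0.43). The antennal receptor Or2a was at 0.03 (SE 0.14, 95% interval -0.27 to 0.34) and the acid receptor Ir75b at 0.01 (SE 0.23). Ir68b was at 0.26 (SE 0.23), Gr98d at -0.04 (SE 0.28), and the palp receptor Or46a at 0.20 (SE 0.32) on 144129_at and -0.45 (SE 0.23, adjusted p = 0.775) on 144130_at.

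Single populations were compared with fixed population means over all 12 arrays, where the error is the spread between arrays and not between replicate selections. Of 126 receptors 0 passed in each of the 4 pairs of an aggressive with a neutral population. Over all probe sets 0.15% passed for aggressive I minus neutral I, 0.308% for aggressive I minus neutral II, 0.122% for aggressive II minus neutral I and 0.301% for aggressive II minus neutral II. At an unadjusted p under 0.05 there were 7, 11, 5 and 6 receptors in that order of pairs, or 5.56%, 8.73%, 3.97% and 4.76%, against 9.49%, 9.32%, 6.75% and 7.32% of all probe sets. Receptors whose 3 arrays did not overlap the other 3 numbered 14, 16, 12 and 10, or 11.1%, 12.7%, 9.52% and 7.94%, against 16%, 16.2%, 12.2% and 13.6% of all probe sets. The pairs share arrays and are not independent.

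The smallest p of a receptor belonged to Or85f for aggressive I minus neutral I (log2 difference 1.13, SE 0.33, limma adjusted p = 0.358) and for aggressive II minus neutral I (1.48, SE 0.33, adjusted p = 0.224). For both populations against neutral II it belonged to 144130_at of Or46a, which had 99.6, 129 and 137 in aggressive I and 98.1, 96.0 and 84.5 in aggressive II, against 87.9, 103 and 184 in neutral I and 407, 267 and 162 in neutral II. All neutral II arrays lay above all aggressive arrays, and the neutral I arrays did not. The log2 difference was -0.72 for aggressive I minus neutral II (SE 0.24, adjusted p = 0.352) and -0.97 for aggressive II minus neutral II (SE 0.24, adjusted p = 0.199). The brighter Or46a probe set, 144129_at, went the other way in these pairs, at 0.67 (SE 0.43) and 0.48 (SE 0.43).

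Populations of the same regime were compared in the same way. For aggressive I minus aggressive II 0 of 126 receptors passed, against 0.186% of all probe sets, with 6 at an unadjusted p under 0.05 (4.76%, against 9.6%). The smallest p was that of Or1a, a larval receptor, with 334, 98.4 and 134 in aggressive I and 612, 584 and 555 in aggressive II. The neutral arrays had 505, 534 and 380 in neutral I and 277, 548 and 394 in neutral II, so aggressive I was low and overlapped neutral II only. Its log2 difference between the aggressive populations was -1.30 (SE 0.30, 95% interval -1.96 to -0.64, limma adjusted p = 0.161). This probe set passed when aggressive I array 1 was left out (log2 difference -1.64, adjusted p = 0.0428). The share of all probe sets passing in that fit is not given here.

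For neutral I minus neutral II 0 of 126 passed, against 0.115% of all probe sets, with 9 at an unadjusted p under 0.05 (7.14%, against 6.64%). The smallest p was that of 146616_at for Ir40a, a dry air receptor, at a log2 difference of 1.52 (SE 0.44, adjusted p = 0.50). The second Ir40a probe set, 146617_at, went the other way in this pair, at -0.83 (SE 0.48). Ir75a, a receptor for acetic acid, had 456, 321 and 498 in aggressive I and 135, 734 and 163 in aggressive II, against 142, 194 and 229 in neutral I and 734, 542 and 530 in neutral II. Neutral I lay below and neutral II above all aggressive I arrays, and aggressive II array 2 stood far above the other two of its population. The difference of aggressive I from neutral I minus that of aggressive II from neutral II was 1.89 for Ir75a (SE 0.58, adjusted p = 0.412), and 0 of 126 receptors passed this interaction test, against 0.2% of all probe sets, with 6 at an unadjusted p under 0.05 (4.76%, against 8.7%). Without aggressive II array 2, Ir75a passed the interaction (adjusted p = 0.0145), aggressive II minus neutral II (0.0259) and neutral I minus neutral II (0.0499). The last of these contrasts holds no aggressive II array, but its error is the spread shared by all arrays in the fit. Shares of all probe sets passing without that array are not given here either.

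**Figure D5:**
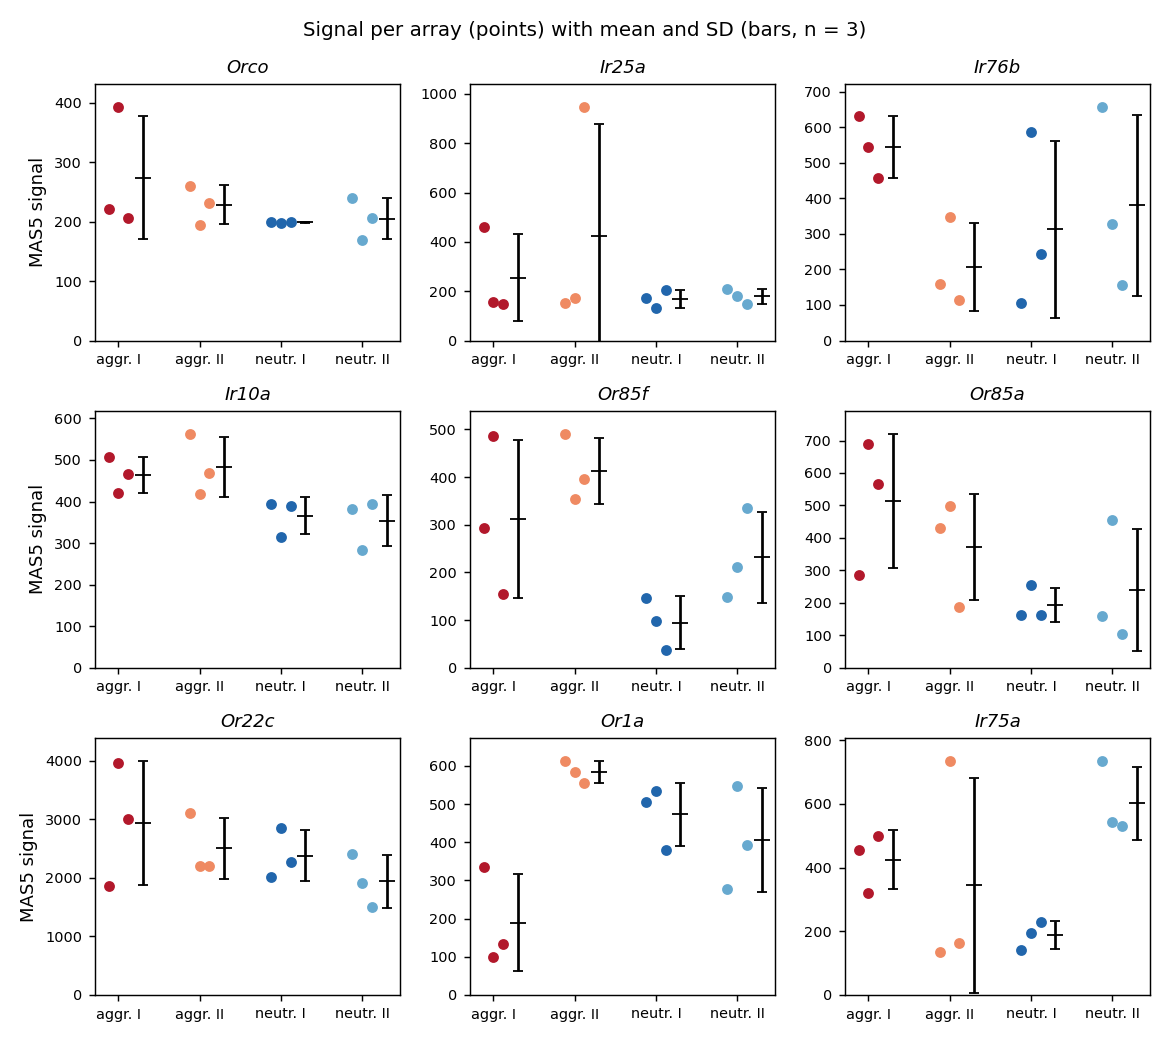
MAS5 signal (y axes, linear and starting at 0, each panel with its own range) of 9 receptor probe sets on each array (points) of the 4 populations (x axes), with the mean and SD of 3 arrays beside them (black bars, clipped at 0). Ir10a is drawn from 144860_at, where every aggressive point lies above every neutral point, while Ir25a and Ir75a show single arrays far from the rest of their population.

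The partners of these receptors in smell and taste, from a list of 16 genes that are no members of the 3 families, were measured by 19 probe sets for 15 genes. None passed in the regime comparison, with 10 above 0 and a median log2 difference of 0.0001. The antennal odorant-binding protein Obp28a had 439, 666 and 872 in aggressive I and 316, 361 and 272 in aggressive II, against 127, 263 and 96.0 in neutral I and 189, 210 and 112 in neutral II, with a log2 difference of 1.12 (SE 0.26, limma adjusted p = 0.264). Obp84a was at -0.45 (SE 0.13, adjusted p = 0.425). Snmp1, needed with Or67d for the response to cis-vaccenyl acetate, was at 0.03 (SE 0.29), and the pheromone channel subunits ppk23 and ppk25 of taste neurons were at 0.43 (SE 0.23) and 0.49 (SE 0.28).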

How the data were processed

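RNA from heads of male flies was hybridised to 12 single-colour Affymetrix arrays. MAS5 gave the deposited intensities, 1 per probe set, per the submitters' processing notes, whose version is not given in the sources used here; from the values, each array had the same trimmed mean, 2500, without the lowest and highest 2% of probe sets. Of 14010 probe sets 44 are controls. Symbols came from the array annotation and RefSeq (Release 6 plus ISO1 MT), where all 126 receptor probe sets matched and 0 symbols changed; no build is named for the intensities, so no coordinates are given.

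Values were taken as log2(intensity + 94.6), the 10th percentile, centred on each array's median, with no signal filter. Tests used limma 3.58.1 in R 4.3.3 with statmod 1.5.0 over 13966 probe sets with Benjamini-Hochberg adjustment at 0.05. The regime fit took population as a random block (consensus correlation 0.0113, prior degrees of freedom 2.49); population contrasts used fixed means. The fit was tested on simulated arrays drawn without spread between populations of a regime, so that spread was not covered. Alternatives changed the pseudocount, filter, scaling, prior, block and arrays.

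The members and lists were chosen with earlier results of these data known. Genes named are those that passed or did not overlap, set co-receptors and social or carbon dioxide receptors, the 10 smallest p-values, the 12 highest signals, the largest within-regime differences, and up to 4 per role list; the lists give only those measured. Or1a, Or22a, Ir40a, Ir52a, Ir75a and the partner genes were named after their values were seen.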

Additional observations from a re-analysis of the deposited data

Results flagged for a closer look

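In groups of 6 arrays of a regime, 114 groups of values were searched for 1 array far from the others, and 14 were found. Chance marks about 1 in 20 groups drawn from a single normal distribution. Each group here joins 2 populations and many probe sets were named by their values, so that rate is only a rough scale. The count of receptors above the array median was 13 on neutral I array 3, against 4 to 6 on the other neutral arrays. On neutral I array 1, Gr21a was low at 183 and Ir21a at 17.4, against 249 to 282 and 41.3 to 59.5 on the other neutral arrays. On the same array Ir52d was high at 203, Gr58c at 83.2 and Ir93a (151773_at) at 653, against 17.5 to 62.3, 26.0 to 36.8 and 58.1 to 130. Ir20a was high on neutral I array 2 at 487, against 107 to 204 on the other neutral arrays. On neutral II array 2, Gr32a was low at 252 and Gr89a at 93.9, against 514 to 631 and 295 to 432. On neutral II array 1, Or46a (144129_at) was low at 197 and Or23a high at 346, against 725 to 1201 and 68.3 to 136. Among aggressive arrays, Or85d was low at 395 and Or59c high at 925 on aggressive I array 3, against 695 to 770 and 185 to 286, and Or85e was low at 73.8 on aggressive II array 3, against 132 to 158. The distances between signals were judged on the log2 scale. The part of any single array in the receptor results was not tested beyond leaving it out.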

How the results depend on the processing

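The count of receptors past the threshold in the regime comparison was 0 under all 27 alternatives, with the smallest adjusted p of a receptor between 0.139 and 0.821. Signal filters at the 40th and 60th percentile left only 12 and 1 of the 126 receptors, so those settings tested few of them. The count was also 0 under all alternatives for aggressive I against either neutral population and for aggressive II minus neutral I. Over fits without 1 array the count ranged from 0 to 1 for aggressive I minus aggressive II and aggressive II minus neutral II. The same range held for neutral I minus neutral II and the interaction. For these fits the share of all probe sets passing is not given here, so a count of 1 is not read as a result about receptors. Same-numbered arrays showed no shared deviation from their population means, with correlations of -0.081 to 0.099, against -0.12 to 0.085 for others. Whether same-numbered arrays were handled together cannot be told from this. With the replicate block the count was 0 in the regime comparison and in all 6 population pairs. The median log2 difference of Gr probe sets was -0.48 over those above the array median, which is Gr8a alone, against 0.087 over all 28. Other medians moved by less than their spread between arrays. Of the 56 named probe sets, the regime difference moved by over 1.5 times or changed sign for 45 in some fit without 1 array and for 47 in some fit without 1 population.

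Several differences changed sign, among them Gr8a at -0.48 in the full fit, and the cause was not tested. Without population aggressive I the log2 difference was 0.25 for Or47b, -0.0082 for Ir8a (144744_at), -0.0076 for Gr68a, -0.47 for Ir76b, 0.075 for Gr8a, -0.089 for Ir75b, 0.014 for Gr98d, -0.055 for Or63a, 0.016 for Or85d, 0.098 for Gr5a, -0.045 for Or59c and 0.067 for Ir93a (151773_at). Without aggressive II it was -0.044 for Or2a, -0.064 for Or23a, 0.19 for Or43a and -0.17 for Ir93a (150282_at). Without neutral I it was 0.42 for Or47b, 0.19 for Ir52d, -0.022 for Ir76b, 0.12 for Gr98d, 0.22 for Or85d, 0.095 for Gr61a, -0.14 for Or23a, -0.080 for Or59c, 0.077 for Ir68a and 0.27 for Ir93a (151773_at). Without neutral II it was -0.039 for Or88a, -0.10 for Or2a, -0.12 for Ir75b, -0.18 for Or46a (144129_at), -0.20 for Or63a, 0.022 for Gr5a and 0.092 for Or43a. Without centring it was -0.013 for Ir75b and -0.0037 for Or63a. With both aggressive I array 2 and neutral I array 3 left out, chosen after seeing the data, it was 0.17 for Or47b, -0.038 for Ir76b, -0.00015 for Ir75b, 0.051 for Gr98d and 0.00064 for Or43a.

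Over fits without 1 array the log2 difference ranged from -0.25 to 0.16 for Gr61a, -0.16 to 0.15 for Gr98d, -0.19 to 0.087 for Ir52d, -0.42 to 0.0037 for Ir68a, -0.11 to 0.16 for Ir75b, -0.068 to 0.35 for Ir76b, -0.39 to 0.15 for Ir93a (151773_at), -0.041 to 0.32 for Or23a, -0.027 to 0.12 for Or2a, -0.21 to 0.058 for Or43a, -0.11 to 0.34 for Or46a (144129_at), -0.32 to 0.18 for Or47b, -0.067 to 0.37 for Or59c, -0.095 to 0.10 for Or63a and -0.28 to 0.019 for Or85d.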
